A study of Mus musculus with 8 samples.

Results

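The genes described here are 9 enzymes of the hepatic methionine cycle and its exits, Mat1a, Gnmt, Bhmt, Bhmt2, Ahcy, Cbs, Cth, Pemt and Mtr. They were taken by gene symbol from a table of 55335 genes, 15234 of which had enough counts to test, and all 9 were among those tested. The table came from bulk RNA sequencing of the liver of 8 female mice, all fed ethanol by the NIAAA chronic-plus-binge protocol, in which a period of ethanol diet ends in a single large dose. Mice 28, 34, 37 and 39 were Ripk1-hepKO, which lack the kinase and scaffold protein RIPK1 in hepatocytes, and mice 29, 32, 40 and 41 were Ripk1-Con controls, so each group had 4 independent animals. Both groups were ethanol-fed, so the comparison is one of genotype under ethanol. Not given in the sources used here are the Cre driver, the alleles of the controls, the strain and the age. Cells other than hepatocytes in these livers keep Ripk1 by the design.

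The methionine cycle makes and recycles S-adenosylmethionine (SAM), the methyl donor of most cellular methylation. Methionine is joined to ATP to make SAM, methyltransferases use it and leave S-adenosylhomocysteine, and hydrolysis of that product frees homocysteine, which is either methylated back to methionine or passed to cysteine by transsulfuration. The liver is the main site of this cycle in mammals and the main organ to use betaine as well as folate for remethylation, and ethanol is known to disturb hepatic SAM supply and folate-dependent remethylation.

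The libraries held 28038390 to 67328158 counts, and levels below are CPM, each gene's share of the library's counts after TMM scaling. Ripk1 itself was 38.1, 35.8, 33.1 and 23.1 CPM in knockout mice 28, 34, 37 and 39 and 34.3, 53.6, 27.8 and 34.2 CPM in control mice 29, 32, 40 and 41. The groups overlapped, with a log2 fold change of -0.21 ± 0.22 (SE; adjusted p = 0.866, edgeR) that was 0.02 without control mouse 32, and a gene-level count neither shows the loss of single exons nor separates hepatocytes from other cells. Hepatocyte markers were abundant in every library: the 10 markers summed to 85598 to 103386 CPM in the knockout group and 98320.0 to 120369.8 CPM in the controls, with none at 0. Of the 10, 3 (Alb, Ttr and Apoh, named after their values were seen) had groups that did not overlap, all lower in the knockout, beside 4.10% of all genes with no overlap in either direction. Log2 fold changes were below 0 for 7 of the 10, beside 48.2% of all genes. Mouse 28 stood apart in several lists of markers. Its 7 stellate cell markers summed to 408 CPM against 247 to 325 CPM in the other 7 mice, its 7 monocyte markers to 135 CPM against 27.4 to 102 CPM and its 5 cholangiocyte markers, of which Cldn4 was at 0 in some library, to 9.31 CPM against 2.39 to 3.96 CPM. Its 7 neutrophil markers summed to 47.6 CPM against 3.62 to 33.4 CPM, with Ly6g, Retnlg and Mpo at 0 in some library. Its 8 periportal hepatocyte markers summed to 9793 CPM against 5246 to 7379 CPM. The members of these 2 lists did not all move together. Mouse 28 was highest for 5 of the 8 periportal markers and lowest for 2, and highest for 4 of the 7 neutrophil markers and lowest for 1. Its 9 pericentral hepatocyte markers summed to 5399.6 CPM against 5399.5 to 8438 CPM in the other 7 mice. Of these 9 markers mouse 28 was lowest for 5 and highest for 1. Control mouse 40 had the lowest sums of several lists: its 7 Kupffer cell markers summed to 80.1 CPM, its monocyte markers to 27.4 CPM and its neutrophil markers to 3.62 CPM. In the other 7 mice these sums were at least 179, 57.6 and 9.91 CPM. Log2 fold changes were above 0 for each tested marker of monocytes (7), neutrophils (5), stellate cells (7) and cholangiocytes (4), with 0 past the FDR. In the other lists of non-hepatocytes, 6 of 7 Kupffer cell, 4 of 6 endothelial cell, 2 of 5 T and NK cell and 1 of 3 B cell markers were above 0. Of all 15234 genes tested, 7886 were above 0. In bulk tissue, fewer cells of a type and less RNA per cell cannot be told apart.

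No difference between the genotypes was detected for any of the 9 enzymes. With edgeR's quasi-likelihood test and Benjamini-Hochberg adjustment at an FDR of 0.05, 0 of 9 passed, against 0% of all 15234 genes. None of the 9 had an unadjusted p under 0.05, which 6.68% of all genes had (3.86% higher and 2.82% lower in the knockout), and none had groups that did not overlap, which 4.10% of all genes had. With DESeq2 0 of the 9 passed as well, against 0.237% of genes. Knockout means were above control means for 3 enzymes on the fitted log2 scale (Mat1a, Gnmt and Cth) and below them for the other 6, with a median log2 fold change of -0.07 beside 0.01 for all genes tested. The share below 0 was 66.7% of the enzymes and 48.2% of all genes. Without mouse 28 the number below 0 was 4 of 9 and the median 0.00. The 95% intervals state how large a difference these 8 mice could still hold: they were narrowest for Ahcy, Pemt and Gnmt, between 76.5% and 137% of the control level, and widest for Cth, from 58.9% to 192%.

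**Figure D1:**
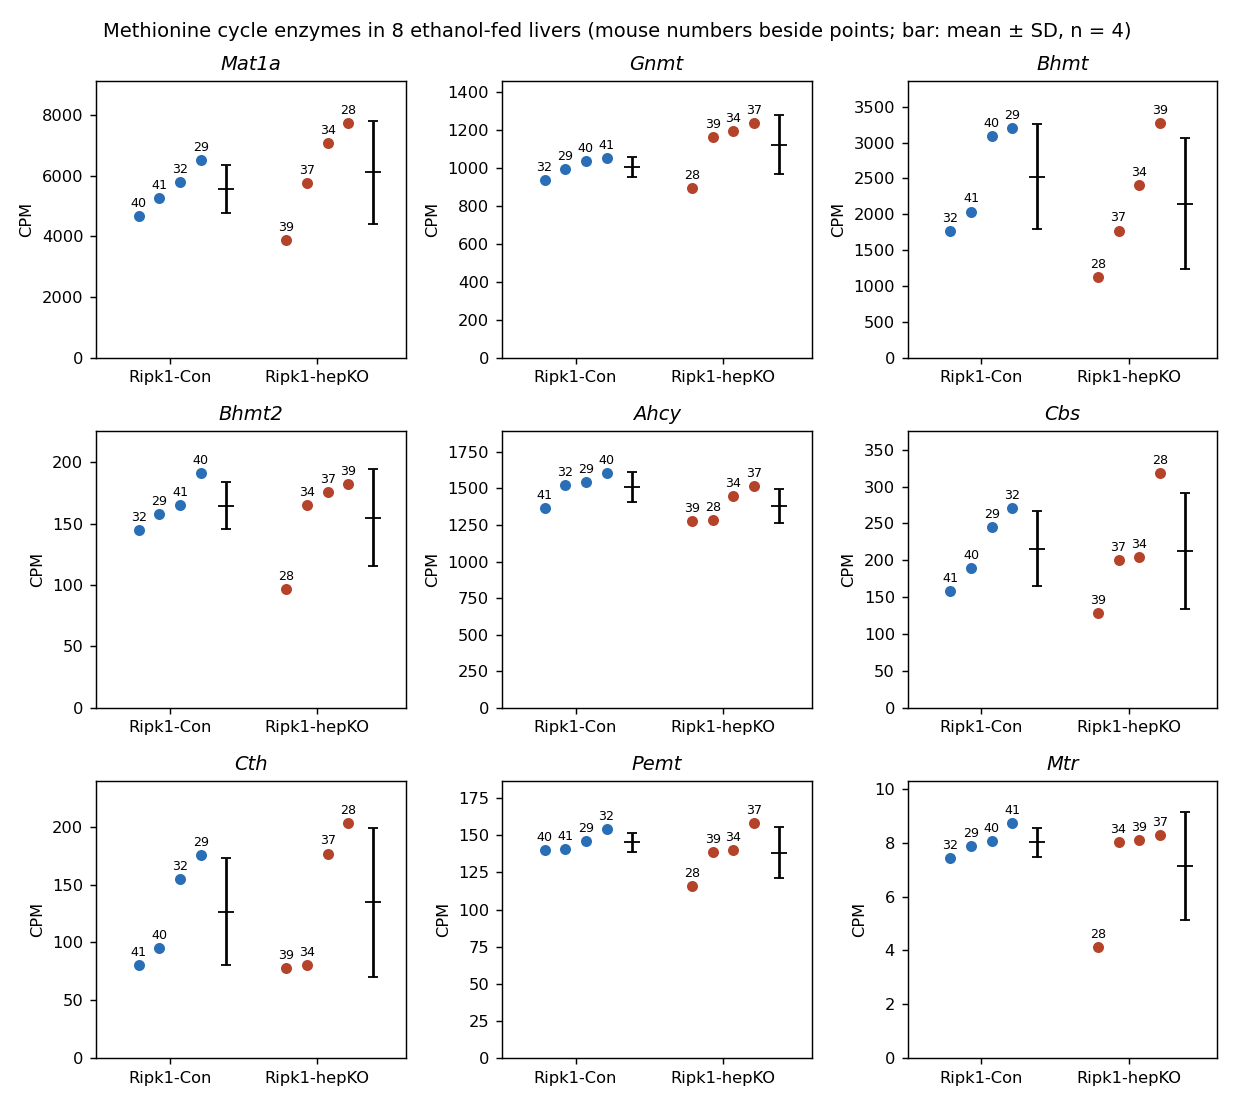
Level of each of the 9 enzymes in the 8 ethanol-fed livers, in CPM on a linear axis from 0 for each gene. Points are mice with their numbers, blue for Ripk1-Con and red for Ripk1-hepKO, and the black bars are the mean ± SD of 4 mice. The groups overlap in every panel, and mouse 28 is the highest knockout point for Mat1a, Cbs and Cth and the lowest for Gnmt, Bhmt, Bhmt2, Pemt and Mtr.

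Mat1a (ENSMUSG00000037798, chromosome 14, 41105035 to 41124412, plus strand, GRCm38) encodes the SAM synthetase of the adult liver. It was at 7723, 7062, 5759.7 and 3881 CPM in knockout mice 28, 34, 37 and 39, and at 6519, 5772, 4671 and 5247 CPM in control mice 29, 32, 40 and 41. The highest and the lowest of the 8 values were both in knockout mice, and the control range lay inside theirs. The means were 6107 ± 1693 CPM (SD, n = 4) in the knockout group and 5552 ± 786 CPM (SD, n = 4) in the controls. This gave a log2 fold change of 0.14 ± 0.22 (SE; adjusted p = 0.912), or 110.0% of the control level with a 95% interval of 78.6% to 154%. It was 0.00 without mouse 28.

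Mat2a, the SAM synthetase that predominates outside the adult liver and in dividing hepatocytes, was read beside Mat1a because the balance of the pair is a known trait of the hepatocyte state. Mat2a was at 267, 166, 181 and 179 CPM in the knockout mice and at 166, 152, 177 and 168 CPM in the controls, in the same order of mice. Only mouse 28 lay outside 152 to 181 CPM. The log2 fold change of Mat2a was 0.26 ± 0.16 (SE; adjusted p = 0.779) and 0.08 without that mouse. The Mat1a count was 28.9, 42.6, 31.9 and 21.7 times the Mat2a count in the knockout mice and 39.2, 38, 26.3 and 31.3 times in the controls. The mean log2 ratio was 4.92 ± 0.40 (SD, n = 4) against 5.06 ± 0.27 (SD, n = 4), a difference of -0.13 (exact two-sided permutation p = 0.629, adjusted p = 0.800 over 6 ratios). The 70 ways to assign 4 mice to each group allow no p below 0.0286 for any of these ratios.

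Gnmt (ENSMUSG00000002769, chromosome 17, 46725664 to 46729168, minus strand) encodes glycine N-methyltransferase, an abundant liver enzyme that uses SAM to make sarcosine and so limits excess SAM. Its level was 893, 1196, 1236 and 1163 CPM in knockout mice 28, 34, 37 and 39 and 993, 939, 1037 and 1055 CPM in control mice 29, 32, 40 and 41. Of the knockout mice, 34, 37 and 39 lay above every control and mouse 28 lay below all of them. The group means were 1122 ± 156 CPM and 1006 ± 51.9 CPM (SD, n = 4 each). The fitted log2 difference was 0.16 ± 0.13 (SE; adjusted p = 0.819), the lowest adjusted p of the 9. Without mouse 28 it was 0.25 (adjusted p = 0.857 in that fit). The Gnmt to Mat1a ratio ranged from 0.116 in mouse 28 to 0.300 in mouse 39, both knockouts, and from 0.152 to 0.222 in the controls, with a mean log2 difference of 0.05 (exact two-sided permutation p = 0.800, adjusted p = 0.800).

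Pemt (ENSMUSG00000000301, chromosome 11, 59970614 to 60046489, minus strand) encodes phosphatidylethanolamine N-methyltransferase, which makes phosphatidylcholine with 3 methyl groups from SAM. It was among the steadiest of the 9, at 116, 139.8, 158 and 139 CPM in the knockout mice and 146, 154, 139.8 and 141 CPM in the controls. Mouse 28 was lowest and mouse 37 highest, and the other 6 mice lay between 139 and 154 CPM. The means were 138 ± 17.4 CPM and 145 ± 6.31 CPM (SD, n = 4 each), with a log2 fold change of -0.07 ± 0.11 (SE; adjusted p = 0.916) that was 0.01 without mouse 28. Pcyt1a encodes the regulated enzyme of the other route to phosphatidylcholine, from choline. It was at 77.9 to 83.0 CPM in the knockout mice and 73.7 to 82.1 CPM in the controls. The Pemt to Pcyt1a ratio was 1.47, 1.74, 1.91 and 1.79 in the knockout mice and 1.98, 1.87, 1.74 and 1.82 in the controls, with overlapping groups and a mean log2 difference of -0.10 (exact two-sided permutation p = 0.343, adjusted p = 0.800).

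Ahcy (ENSMUSG00000027597, chromosome 2, 155059310 to 155074497, minus strand) encodes S-adenosylhomocysteine hydrolase, which removes the product that inhibits methyltransferases. It varied least among the 8 mice, with a coefficient of variation of 8.49%. Its level was 1283, 1445, 1514 and 1279.8 CPM in the knockout mice and 1542, 1524, 1603 and 1366 CPM in the controls. Knockout mice 28 and 39 were below every control, and mice 34 and 37 were within the control range. The means were 1380.4 ± 118 CPM and 1509 ± 101 CPM (SD, n = 4 each), with a log2 fold change of -0.13 ± 0.11 (SE; adjusted p = 0.834), or 91.5% of the control level (95% interval 76.5% to 109%). Of 2510 stretches of 100 bases in Ahcy transcripts, 70.2% also occur in transcripts of other genes, chiefly Gm4737, which itself stood at 325 to 395 CPM. How such reads were divided is not stated in the labels. With the counts of Ahcy, Gm4737 and Gm9826 summed, the log2 fold change was again -0.13 (adjusted p = 0.832).

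Remethylation of homocysteine runs by Bhmt, by its paralog Bhmt2 and by the folate-dependent Mtr. Bhmt (ENSMUSG00000074768, chromosome 13, 93616675 to 93637961, minus strand) encodes betaine-homocysteine methyltransferase, which takes the methyl group from betaine. Bhmt was at 1131, 2415, 1774 and 3271 CPM in knockout mice 28, 34, 37 and 39 and at 3203, 1762, 3096 and 2039 CPM in control mice 29, 32, 40 and 41. Both groups held low and high mice, and the highest value was 2.89 times the lowest, the widest span of the 9. The means were 2148 ± 914 CPM and 2525 ± 731 CPM (SD, n = 4 each). Its log2 fold change was -0.23 ± 0.33 (SE; adjusted p = 0.902) and -0.02 without mouse 28. Transcripts of Gm5096 and Bhmt-ps1 contain 41.6% of the 2391 stretches of 100 bases in Bhmt transcripts. Gm5096 stood at 110.2 to 309 CPM, and with the 3 genes summed the log2 fold change was -0.24 (adjusted p = 0.900).

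Bhmt2 (ENSMUSG00000042118, chromosome 13, 93655720 to 93674302, minus strand) is the neighbour of Bhmt and its paralog, and its enzyme uses S-methylmethionine in place of betaine. It was at 97.0, 165, 176 and 182 CPM in the knockout mice and at 158, 145, 191 and 165 CPM in the controls. The 7 mice other than mouse 28 lay between 145 and 191 CPM, and 3 knockout mice lay within the control range. Between the genotypes Bhmt2 differed by -0.09 ± 0.19 on the log2 scale (SE; adjusted p = 0.942), and by 0.08 without mouse 28. Bhmt and Bhmt2 share no stretch of 100 bases, and shorter stretches were not compared.

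Mtr (ENSMUSG00000021311, chromosome 13, 12182712 to 12258113, minus strand) encodes methionine synthase, which uses 5-methyltetrahydrofolate and a cobalamin cofactor. It had the lowest counts of the 9, with 224 to 459 per library. Its level was 4.11, 8.03, 8.29 and 8.09 CPM in the knockout mice and 7.90, 7.42, 8.07 and 8.72 CPM in the controls. Mouse 28 was far under the 7 others, which spanned 7.42 to 8.72 CPM. The means were 7.13 ± 2.02 CPM and 8.03 ± 0.536 CPM (SD, n = 4 each), with a log2 fold change of -0.17 ± 0.22 (SE; adjusted p = 0.892) that was 0.02 without mouse 28. The ratio of Bhmt to Mtr was 275, 301, 214 and 405 in the knockout mice and 405, 237, 384 and 234 in the controls. The groups overlapped, with a mean log2 difference of -0.07 (exact two-sided permutation p = 0.800, adjusted p = 0.800).

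Promoter sequence was read for the enzymes that RefSeq's table covers, 7 of the 9, over the 250 bases before each RefSeq start (GRCm38.p6). The sequences of Bhmt2, Mtr and Gnmt are shown because these 3 genes had their lowest value in mouse 28, as Bhmt and Pemt also did, and because of their positive correlations given below, of which none passed adjustment. Each is written 5′ to 3′ on the minus strand, with CpG dinucleotides in capitals. The Bhmt2 stretch, chr13:93674303-93674432, is 130 bases long. Its first printed base lies next to the first exon of Dmgdh, and its last lies next to the start of Bhmt2. Dmgdh lies head to head with Bhmt2 and encodes dimethylglycine dehydrogenase, which breaks down the dimethylglycine left by the betaine reaction. The Mtr stretch is chr13:12258114-12258363, and the Gnmt stretch is chr17:46729166-46729415. By the gene positions given above, the last 3 bases printed for Gnmt lie in its own exon.
Bhmt2: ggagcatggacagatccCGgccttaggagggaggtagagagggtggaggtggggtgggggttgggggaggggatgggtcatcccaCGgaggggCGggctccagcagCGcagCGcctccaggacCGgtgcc
Mtr: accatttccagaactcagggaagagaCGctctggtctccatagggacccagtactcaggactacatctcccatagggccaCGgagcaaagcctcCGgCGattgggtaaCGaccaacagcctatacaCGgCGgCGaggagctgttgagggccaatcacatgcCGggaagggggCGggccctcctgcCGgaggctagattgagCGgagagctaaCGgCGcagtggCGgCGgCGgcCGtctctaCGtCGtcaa
Gnmt: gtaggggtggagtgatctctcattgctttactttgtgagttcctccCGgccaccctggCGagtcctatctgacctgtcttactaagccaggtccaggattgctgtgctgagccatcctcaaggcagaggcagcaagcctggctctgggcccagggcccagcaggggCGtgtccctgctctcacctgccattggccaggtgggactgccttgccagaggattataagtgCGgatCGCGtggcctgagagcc
The full window of 250 bases held 20 CpG for Bhmt2, 20 for Mtr and 6 for Gnmt, beside a median of 6 over 32851 windows, and 21 for Cbs, 9 for Ahcy, 5 for Bhmt and 1 and 2 for the 2 starts of Pemt. Of the 20 for Bhmt2, only 6 lie in the 130 bases printed, and the rest lie on the side of Dmgdh. The letters CCAAT, searched on both strands, occurred 2 times in the Mtr window, 1 time in the Gnmt window and not in the Bhmt2 window, and 33.8% of all windows hold them. The letters GGGCGG, also searched on both strands and overlapping no CCAAT, occurred 2 times for Bhmt2, 1 time for Mtr and not for Gnmt, and are in 32.7% of windows. Not all of the 2 for Bhmt2 lie in the printed bases. Neither letter string was in all 3 windows. A string absent from this stretch says only that these letters are not in it.

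Transsulfuration takes homocysteine out of the cycle. Cbs (ENSMUSG00000024039, chromosome 17, 31608894 to 31637238, minus strand) encodes cystathionine beta-synthase, its first and committed step. Cbs was at 318, 205, 201 and 128 CPM in knockout mice 28, 34, 37 and 39 and at 245, 271, 189 and 159 CPM in control mice 29, 32, 40 and 41. The highest and lowest values were again knockout mice 28 and 39. The means were 213 ± 78.2 CPM and 216 ± 51.1 CPM (SD, n = 4 each), with a log2 fold change of -0.02 ± 0.27 (SE; adjusted p = 0.992), or 98.7% of the control level (95% interval 64.7% to 150.5%).

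Cth (ENSMUSG00000028179, chromosome 3, 157894248 to 157925077, minus strand) encodes cystathionine gamma-lyase, which completes the route to cysteine. Its values were 203, 80.8, 177 and 77.7 CPM in the knockout mice and 176, 155, 95 and 80.6 CPM in the controls. In each group 2 mice lay at or above 155 CPM and 2 at or below 95 CPM, and the coefficient of variation over the 8 mice, 40%, was the highest of the 9. Between the genotypes Cth differed by 0.09 ± 0.38 on the log2 scale (SE; adjusted p = 0.974). It was -0.18 without mouse 28 and 0.29 at the other end of the fits that left out 1 mouse. The Cth to Cbs ratio ranged from 0.394 to 0.879 in the knockout mice and from 0.502 to 0.720 in the controls, a mean log2 difference of 0.09 (exact two-sided permutation p = 0.743, adjusted p = 0.800).

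The branch point between remethylation and transsulfuration was read as the ratio of Cbs to Bhmt, which had the widest spread of the 6 ratios. It was 0.281, 0.0849, 0.113 and 0.0392 in the knockout mice and 0.0763, 0.154, 0.0611 and 0.0779 in the controls. The highest and the lowest were both knockout mice, 28 and 39. The mean log2 ratio was -3.30 ± 1.17 against -3.53 ± 0.58 (SD, n = 4 each), a difference of 0.23 (exact two-sided permutation p = 0.743, adjusted p = 0.800) that became -0.26 without mouse 28.

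**Figure D2:**
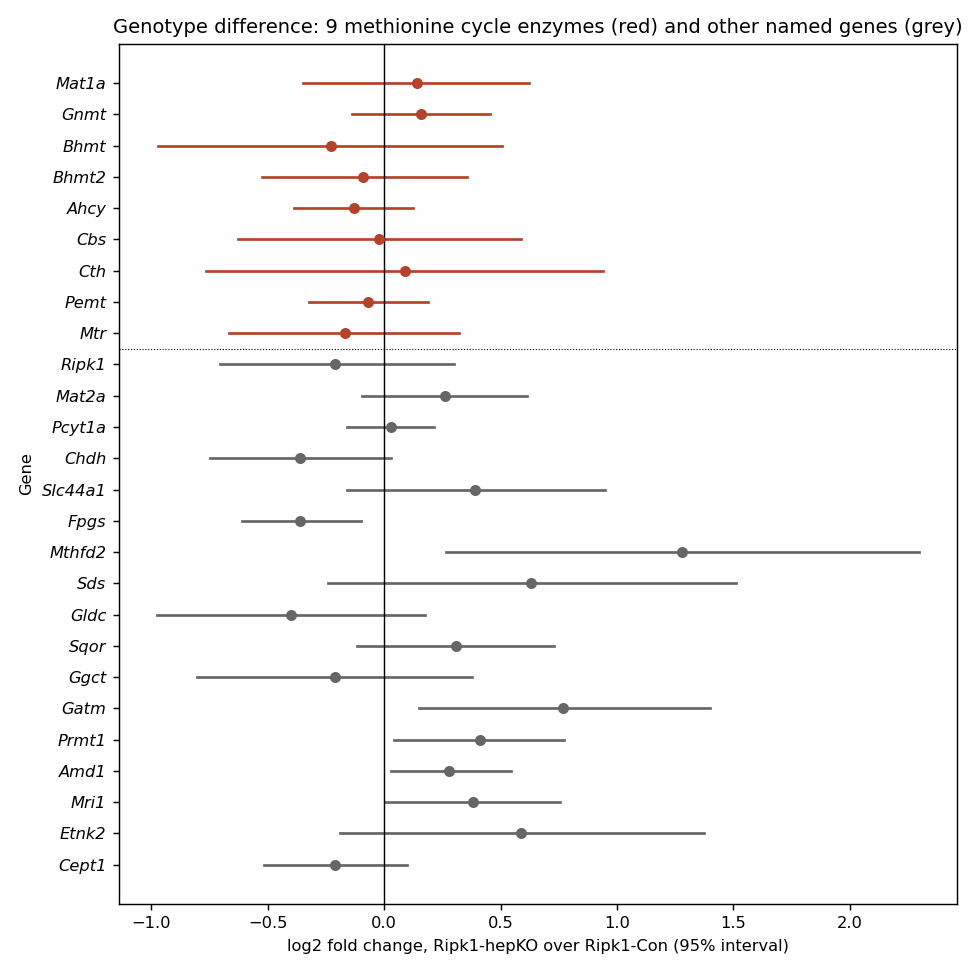
Log2 fold change of Ripk1-hepKO over Ripk1-Con with its 95% interval from the edgeR fit, for the 9 enzymes in red above the dotted line and the other named genes in grey below it. Each of the 9 red intervals crosses 0, from the narrow ones of Ahcy and Pemt to that of Cth.

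Levels were ranked between genes only per length of annotated exon. The 6 ratios above had no length term, so they compare mice and do not rank the genes of a pair. The Cth to Cbs ratio, for example, was at most 0.879, while per length Cth was the higher. Mat1a had the highest level, 1681 CPM per kilobase as the mean of 8 mice (range 1119 to 2227), followed by Gnmt at 882 (740.3 to 1025), Ahcy at 515 (456 to 571) and Bhmt at 406 (196 to 568). Pemt at 67.4, Bhmt2 at 64.8, Cth at 46.8 and Cbs at 28.6 CPM per kilobase formed a lower tier, and Mtr was lowest at 0.889. Mat1a exceeded Gnmt, Gnmt exceeded Ahcy and Bhmt exceeded Pemt in 8 of 8 mice with no overlap of ranges, as Cbs exceeded Mtr. Ahcy exceeded Bhmt in 6 mice, Pemt exceeded Bhmt2 in 4 and Bhmt2 exceeded Cth in 7, so these neighbours overlapped. Cth exceeded Cbs within each of the 8 mice although their ranges overlapped. The order depends on the transcript. With the length of the principal transcript Mat1a exceeded Gnmt in 7 of 8 mice, with overlapping ranges, and Gnmt exceeded Bhmt, then at 938 CPM per kilobase, in 5. Bhmt was above Ahcy, at 568 CPM per kilobase, in 7 of 8 mice. The means of Cth and Bhmt2 were 72.0 and 64.8 CPM per kilobase on that length, with Cth higher in 4 of 8 mice. Among the enzymes that remethylate homocysteine, Bhmt was thus the most abundant transcript per length and Mtr the least, with either length.

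Most of the extreme values came from a few mice. Mouse 28 had the highest value of all 8 mice for Mat1a, Cbs and Cth and the lowest for Gnmt, Bhmt, Bhmt2, Pemt and Mtr, so it was at an extreme for 8 of the 9. Mouse 39, also a knockout, was at the opposite end for 4 of these: highest for Bhmt and lowest for Mat1a, Cbs and Cth, and it was lowest for Ahcy too. The remaining extremes were mouse 37 (highest for Gnmt and Pemt) and control mice 40 (Bhmt2 and Ahcy) and 41 (Mtr). Knockout mouse 34 and control mice 29 and 32 were at no extreme. The share of all genes with an extreme in each mouse was not computed. These counts are therefore not shown to be particular to the 9 enzymes. Outside them, mouse 28 was highest for 6 of 7 stellate cell, 6 of 7 monocyte and 5 of 5 cholangiocyte markers. It was highest for 1 of 7 Kupffer cell markers and 0 of 6 T and NK cell markers. On the scale of log2(CPM + 1), mouse 28 was 0.44, 0.62 and 0.74 above the mean of the 8 mice for Mat1a, Cbs and Cth, and -0.97, -0.69 and -0.72 from it for Bhmt, Bhmt2 and Mtr. Mouse 39 was -0.56, -0.68 and -0.64 from the mean for Mat1a, Cbs and Cth and 0.57 above it for Bhmt. The libraries of these mice held 59481293 and 49800439 counts. Mouse 28 also had the highest stellate cell, monocyte, neutrophil, cholangiocyte and periportal hepatocyte marker sums, given above. Of these sums, mouse 39 was lowest only for the periportal one, at 5246 CPM. Control mouse 40 was lowest for the stellate cell, monocyte, neutrophil and cholangiocyte sums. The stellate cell sum of mouse 39 was 325 CPM, the highest after that of mouse 28. The part of cell types in the pattern of the enzymes was not tested. The hepatocyte marker sum was 92209.8 CPM in mouse 28 and 85598 CPM in mouse 39, the latter being the lowest of the 8 mice. These sums hide a split. Mouse 28 was lowest for 5 of the 10 hepatocyte markers and highest for 2, Fgb and Tat. Alb was at 48465 CPM in mouse 28 and 65248 CPM in mouse 39, and Fgb at 25464 and 4344 CPM. These 3 markers were named after their values were seen.

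**Figure D3:**
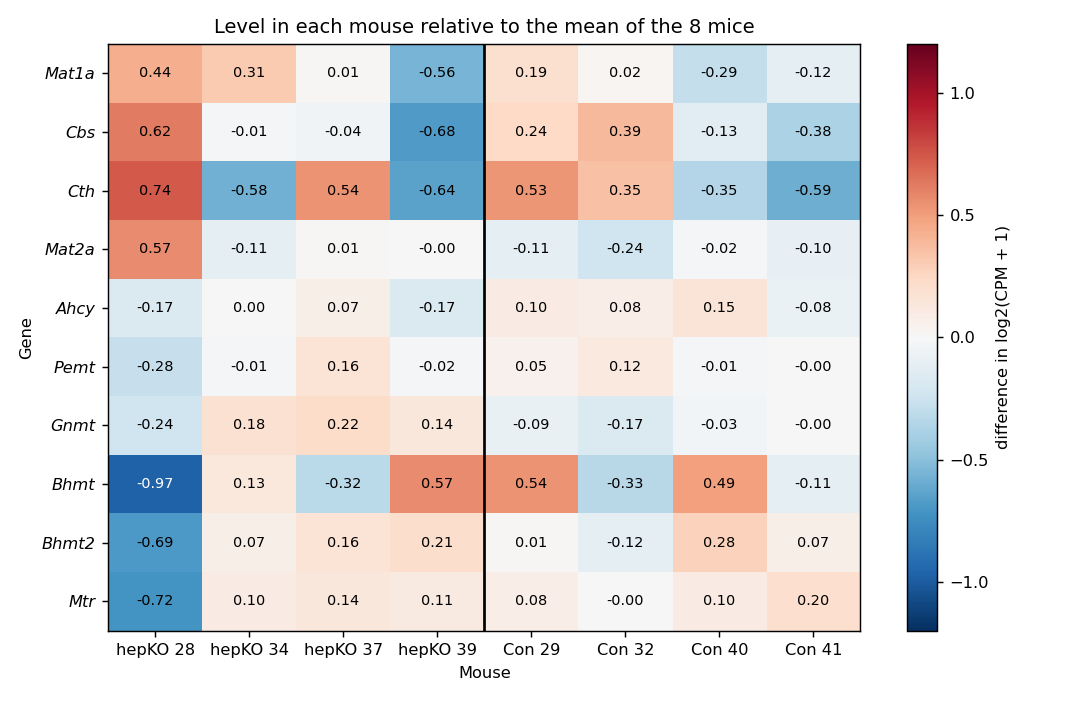
Difference of each mouse from the mean of the 8 mice in log2(CPM + 1), for the 9 enzymes and Mat2a (rows) in each mouse (columns; knockout mice left of the black line, controls right of it). Mouse 28 is red for Mat1a (0.44), Cbs (0.62) and Cth (0.74) and blue for Bhmt (-0.97), Bhmt2 (-0.69) and Mtr (-0.72), and mouse 39 has the opposite colours for Mat1a, Cbs, Cth and Bhmt.

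Across the 8 mice the 9 enzymes gave 36 pairs, 21 with a positive and 15 with a negative Pearson's r of log2(CPM + 1). No pair passed adjustment over the 36 (lowest adjusted p = 0.101, exact permutation test), and 10 had an unadjusted p under 0.05. With Spearman's rho 0 passed (lowest adjusted p = 0.0869, exact permutation test) and 7 had an unadjusted p under 0.05. With values centred within genotype and permuted within it, 0 passed (lowest adjusted p = 0.125) and 7 had an unadjusted p under 0.05. With libraries scaled by size alone 7 pairs passed. Over the 8 mice, r was positive among Mat1a, Cbs and Cth, positive among Gnmt, Bhmt, Bhmt2 and Mtr, and negative between these sets.

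Cbs and Cth, successive steps of transsulfuration, had r = 0.81 and rho = 0.79 (exact permutation p = 0.0127 and 0.0279, adjusted p = 0.101 and 0.189), with r = 0.69 without mice 28 and 39, the mice farthest from the median. Their r was 0.76 within the 4 knockout mice and 0.94 within the 4 controls. Mat1a and Cbs had r = 0.83 and rho = 0.88 (exact permutation p = 0.0121 and 0.00724, adjusted p = 0.101 and 0.0869), and r fell to 0.45 without the same mice. Bhmt2 and Cbs ran opposite, with r = -0.77 and rho = -0.88 (exact permutation p = 0.0171 and 0.00724, adjusted p = 0.101 and 0.0869), and r was -0.83 without mice 28 and 40.

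Bhmt2 and Mtr had the highest r, 0.94, with rho = 0.76 (exact permutation p = 0.0139 and 0.0368, adjusted p = 0.101 and 0.189). It was 0.64 without mice 28 and 40, and 0.52 without mouse 28 alone. Bhmt and Bhmt2 had r = 0.80 and rho = 0.62 (exact permutation p = 0.0167 and 0.115, adjusted p = 0.101 and 0.296), and r = 0.38 without mice 28 and 39. Gnmt and Mtr had r = 0.65 and rho = 0.76 over the 8 mice (exact permutation p = 0.0184 and 0.0368, adjusted p = 0.101 and 0.189), with r = 0.45 without mice 28 and 37. Centred within genotype, their r was 0.98 (adjusted p = 0.125, permuted within genotype). Gnmt and Bhmt2 had r = 0.72 and rho = 0.64 (exact permutation p = 0.0196 and 0.0962, adjusted p = 0.101 and 0.289), with r = 0.54 without mice 28 and 37, and 0.95 after centring. The relations of Bhmt with Mtr and of Pemt with Mtr rested on mouse 28: r was 0.71 and 0.81 over 8 mice and -0.01 and -0.31 without it. The sign of r without mouse 28 was the same as with it in 23 of the 36 pairs.

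**Figure D4:**
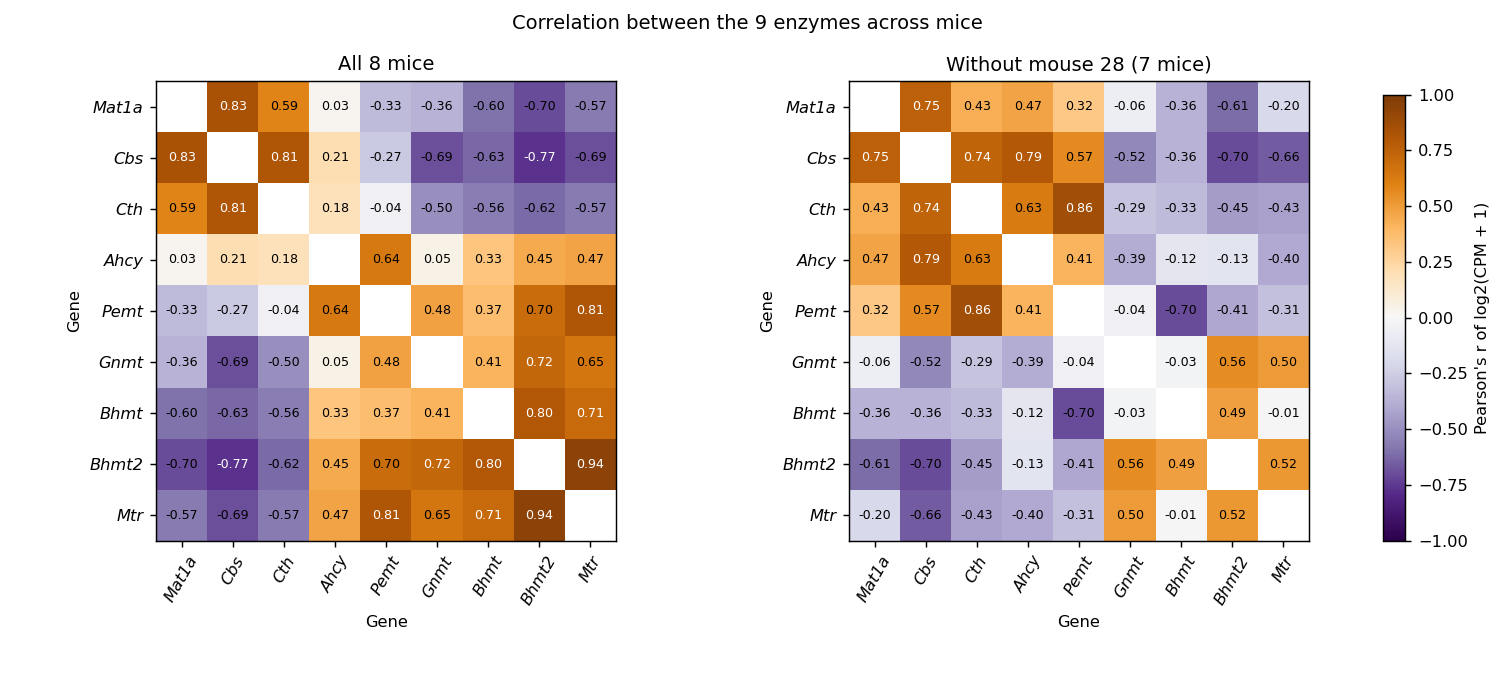
Pearson's r of log2(CPM + 1) between the 9 enzymes over all 8 mice (left) and over the 7 mice without mouse 28 (right), orange for positive and purple for negative. The pairing of Cbs with Cth stays at 0.74 and that of Mat1a with Cbs at 0.75 without mouse 28, while Bhmt with Mtr goes from 0.71 to -0.01 and Pemt with Mtr from 0.81 to -0.31.

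For each enzyme the gene whose pattern was most like it over the 8 mice was taken from 7452 genes with a mean of at least 10 CPM. These are the highest of many correlations, given as descriptions. The gene most like Mat1a was Nnmt (r = 0.969, and 0.96 without mouse 28), which encodes nicotinamide N-methyltransferase, another enzyme that uses SAM. Nnmt was at 449, 337, 218 and 94.1 CPM in the knockout mice and 229, 274, 135 and 172 CPM in the controls, so mice 28 and 39 were at its extremes too. For Bhmt it was Gm5096 (r = 0.996), one of the genes that share its transcript sequence. For Bhmt2 it was Slc29a1 (r = 0.993), a nucleoside transporter, at 43.3 CPM in mouse 28 and 81.8 to 119 CPM in the others. For Mtr it was Atl3 (r = 0.993, and 0.80 without mouse 28), for Ahcy Emc3 (r = 0.982), for Pemt Cyb5r4 (r = 0.976), for Cbs Hnrnph2 (r = 0.969), for Cth Acat2 (r = 0.949) and for Gnmt Zfp768 (r = 0.946).

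The wider one-carbon network around the 9 enzymes was read in 8 lists of 93 genes, 92 of them tested. With edgeR 0 of the 92 passed the FDR, and none did with DESeq2. An unadjusted p under 0.05 was found for 8 of them, 6 higher and 2 lower, which is 8.70% beside 6.68% of all genes. Log2 fold changes were above 0 for 42 and below 0 for 50, with a median of -0.01. Groups that did not overlap were found for 1 gene, Pcmt1, a repair methyltransferase for aged proteins named after its values were seen (25.2 to 37.4 CPM against 22.9 to 25.0 CPM), which is 1.09% beside 4.10% of all genes.

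Around the cycle itself, the list of 10 other genes of SAM synthesis and remethylation, Mat2a among them, had 3 log2 fold changes above 0 and 7 below, with a median of -0.07. Of 7 genes of choline and betaine metabolism, 0 had an unadjusted p under 0.05. Chdh, which oxidises choline toward betaine, was at 128 ± 26.8 CPM against 164 ± 22.2 CPM (SD, n = 4 each; log2 fold change -0.36, adjusted p = 0.756), and Slc44a1, a choline transporter, at 36.6 ± 12.6 CPM against 27.9 ± 6.27 CPM (log2 fold change 0.39, adjusted p = 0.779), which was 0.13 without mouse 28.

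Of 21 folate genes, 7 had log2 fold changes above 0 and 14 below, with 1 unadjusted p under 0.05 in each direction, beside 6.68% of all genes in either direction. Fpgs, which adds the glutamate tail that keeps folates in cells, was at 89.6, 93.2, 109.5 and 92.3 CPM in the knockout mice and 140.0, 119, 124 and 109 CPM in the controls. The groups touched between knockout mouse 37 and control mouse 41, with a log2 fold change of -0.36 ± 0.11 (SE; adjusted p = 0.742). Mthfd2, a mitochondrial folate enzyme, was at 7.02, 11.0, 3.20 and 5.05 CPM in the knockout mice and 1.80, 1.42, 4.38 and 3.25 CPM in the controls. Its groups overlapped at low levels, with a log2 fold change of 1.28 ± 0.45 (SE; adjusted p = 0.742). Of 9 serine and glycine genes 0 had an unadjusted p under 0.05. Gldc, of the glycine cleavage system, was lowest in mouse 28 at 66.5 CPM, and Sds, which breaks down serine and is a periportal marker, was highest there at 256 CPM. The log2 fold change of Sds was 0.63 (adjusted p = 0.779) with that mouse and 0.15 without it.

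Of 11 cysteine and glutathione genes, 3 had log2 fold changes above 0 and 8 below, and 0 had an unadjusted p under 0.05. Sqor, which oxidises hydrogen sulfide, was at 185 CPM in mouse 28 and 93.8 to 122 CPM in the other 7 mice. Ggct, of glutathione breakdown, had a log2 fold change of -0.21 (adjusted p = 0.885). Of 9 tested genes of phosphatidylcholine synthesis and its neighbours 0 had an unadjusted p under 0.05. Etnk2 was at 197 ± 90.3 CPM against 131 ± 43.6 CPM and Cept1 at 46.5 ± 3.80 CPM against 53.7 ± 9.43 CPM (SD, n = 4 each), with log2 fold changes of 0.59 and -0.21 (adjusted p = 0.771 and 0.787).

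Log2 fold changes were counted likewise for SAM-using and SAM-recycling genes beyond the 9. Of 14 in the methyltransferase list, 10 were above 0 and 2 had an unadjusted p under 0.05, both higher, beside 7886 above 0 and 588 (3.86%) higher at that p of the 15234 genes tested. These were Gatm, which makes the precursor that is methylated to creatine and is not itself a methyltransferase, and Prmt1, a protein arginine methyltransferase. Gatm was at 8.06 ± 2.90 CPM against 4.73 ± 1.09 CPM and Prmt1 at 14.7 ± 1.39 CPM against 11.1 ± 2.37 CPM (SD, n = 4 each), with log2 fold changes of 0.77 and 0.41 (adjusted p = 0.742 for both). Of 11 genes of polyamine synthesis and methionine salvage, 10 were above 0 (median 0.17 on the log2 scale), and 3 had an unadjusted p under 0.05, all higher, beside 3.86% of all genes higher at that p and 48.2% below 0. They were Amd1, which decarboxylates SAM, Mri1, of the salvage route, and Srm, spermidine synthase, the last named outside the rule. Amd1 was at 30.2, 37, 40 and 34.4 CPM in the knockout mice and 25.8, 31.0, 28.7 and 30.8 CPM in the controls, where only mouse 28 of the knockouts lay within the control range. Its log2 fold change was 0.28 and that of Mri1 0.38 (adjusted p = 0.742 and 0.747).

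**Figure D5:**
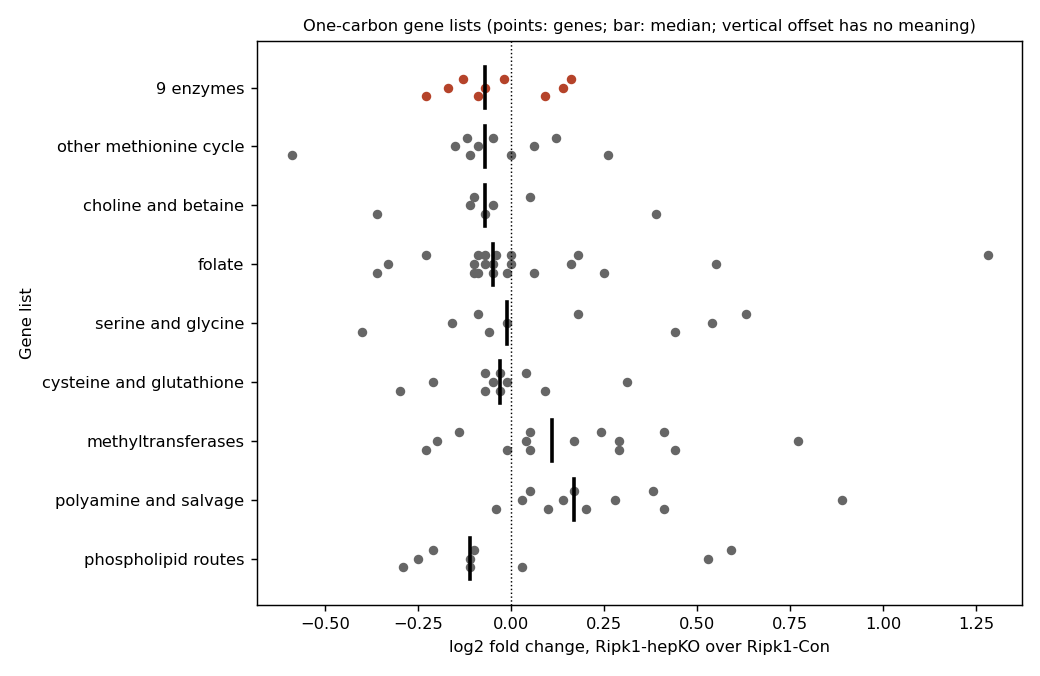
Log2 fold change of Ripk1-hepKO over Ripk1-Con for each tested gene (points) of the 9 enzymes (red) and of the 8 surrounding one-carbon lists (grey), with the median of each list as a black bar. The median is -0.07 for the 9 enzymes, 0.17 for polyamine and salvage genes and 0.11 for methyltransferases, and no point passed the FDR.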

How the data were processed

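Per the labels' protocols, TRIzol was used for liver RNA, libraries came from its polyadenylated fraction, and dUTP kept strand. The values are raw gene counts, whole numbers that the authors deposited in 1 table. In the submitters' processing notes appear STAR 2.5.2b, StringTie 2.2.1, FastQC 0.11.5, DESeq2 1.38.1 and, as the build, GRCm38.p6, without their roles. Not given in the sources used here are the counting tool, its strand setting and the annotation release, so overlapping genes and near-identical copies are uncertain.

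Symbols and positions came from GENCODE M21 (GRCm38), to which 55154 gene IDs matched and 181 did not. Counts were filtered (filterByExpr), scaled by TMM and tested with edgeR 4.0.16 in R 4.3.3 (robust quasi-likelihood, genotype alone, Benjamini-Hochberg over 15234 genes, FDR 0.05). DESeq2 1.42.0, limma voom 3.58.1, other scalings and filters, and fits without single mice or without mice 28 and 40 were alternatives. Summing near-identical copies was chosen after seeing the data. The common biological coefficient of variation was 0.292. Ratios and correlations used exact permutation tests, correlations on log2(CPM + 1).

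The 9 enzymes and the lists were chosen with earlier results of these data known. Text names the 9, Ripk1, the ratio partners, the 2 genes of smallest p in each list and the gene most like each enzyme, and marks other names; 1 gene under this rule is not reported here. No molecular identifiers are described, so reads need not be independent molecules. The authors' own DESeq2 result was not used here.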

Additional observations from a re-analysis of the deposited data

Results flagged for a closer look

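In groups of 4 mice, 66 groups of values were checked for a mouse far from the other 3, and 3 were found, beside 3.30 expected at the 1 in 20 rate that chance gives. Of the 3, 2 were in mouse 28. Mtr was at 4.11 CPM in mouse 28 and at 8.03 to 8.29 CPM in the other knockout mice, a gap of 0.937 of the group's whole range. Mat2a was at 267 CPM in mouse 28 and at 166 to 181 CPM in the other knockout mice, a gap of 0.853 of the range. Ggct was at 9.40 CPM in control mouse 40 and at 5.87 to 6.39 CPM in the other controls, a gap of 0.852 of the range.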

How the results depend on the processing

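No setting brought any of the 9 enzymes past the FDR. Over all genes 36 passed with the DESeq2 Wald test and 0 in each other fit. The number of enzymes below 0 was 4 to 7 and their median -0.13 to 0.00 when 1 mouse was left out. Directions were less settled, and the cause was not tested. Without mice 28 and 40 the log2 fold change turned to -0.07 for Mat1a, 0.09 for Bhmt, 0.16 for Bhmt2, -0.30 for Cth, 0.02 for Mtr and 0.11 for Ggct, and the log2 ratio difference to 0.07 for Bhmt to Mtr and -0.43 for Cbs to Bhmt. With voom and sample quality weights Bhmt2 was 0.04 and Cth -0.19. Leaving out each mouse in turn gave log2 fold changes of -0.28 to 0.17 for Cbs, -0.18 to 0.29 for Cth, -0.17 to 0.08 for Bhmt2, -0.13 to 0.01 for Pemt, -0.25 to 0.02 for Mtr, -0.00 to 0.05 for Pcyt1a and -0.32 to 0.02 for Ripk1. It gave ratio differences of -0.18 to 0.28 for Gnmt to Mat1a, -0.23 to 0.08 for Bhmt to Mtr, -0.26 to 0.69 for Cbs to Bhmt, -0.09 to 0.29 for Cth to Cbs and -0.29 to 0.03 for Mat1a to Mat2a, and r of -0.01 to 0.79 for Bhmt with Mtr and -0.31 to 0.87 for Pemt with Mtr. Gnmt stayed above 0 (0.11 to 0.27) and Ahcy below 0 (-0.17 to -0.06) in every fit run. Pairs of enzymes past adjustment numbered 7 with library size alone and 0 to 1 when 1 mouse was left out (1 each without mouse 39 or 41). No paired analysis was possible because the groups share no mouse numbers. Of the 9 enzymes Mtr had the fewest counts, 224 to 459.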
